A study of Mus musculus with 19 samples.

Results

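The 10 genes Hif1a, Egln3, Vegfa, Adm, Bnip3, P4ha1, Car9, Ankrd37, Ndrg1 and Ddit4, which are widely used as readouts of the transcriptional response to low oxygen, were followed by name in sorted mouse mammary carcinoma cells from tumors of obese and lean hosts. They were matched by symbol to the 39017 genes of the count table, and all 10 were among the 16352 genes with enough counts to be tested. The cells were E0771, a mouse mammary carcinoma line, and all of them carried the red fluorescent protein mCherry. They were implanted into a mammary fat pad of c57bl6 mice, and tumors were dissociated at midpoint (day 14) or endpoint (day 21). The mCherry-positive cells were then sorted and their RNA was sequenced. The 18 libraries compared were 5 from obese and 4 from lean mice at endpoint, and 5 from obese and 4 from lean mice at midpoint. The sample titles give the obese mice as HFD and the lean mice as Chow. The age of the mice, the time on diet and the origin of the mCherry construct are not stated in the labels, and every tumor came from the same implanted line. The study's own text describes cells collected from each tumor, so the spread between libraries was taken as a spread between tumors. A further lean endpoint library, replicate 4, whose counts stop on chromosome 5, was left out.

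Cells sense oxygen through hydroxylases that use it as a substrate. In normal oxygen the EGLN prolyl hydroxylases mark the alpha subunits of the hypoxia-inducible factors (HIF) for destruction by the VHL ubiquitin ligase. In low oxygen the subunits persist, pair with ARNT and bind a short DNA element near their target genes. These targets include genes for blood vessel growth, glucose use, mitochondrial turnover, collagen modification and acid balance, and in solid tumors they are known to mark poorly perfused regions. HIF alpha is set largely by the stability of the protein, and only RNA was measured in these libraries.

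The HIF element contains the core ACGTG or GCGTG, which reads CACGT or CACGC on the other strand. Promoters of the 5 genes that changed in at least one comparison are shown because the members did not move alike. Each is the 250 bases before a start in RefSeq, printed on the gene's strand from RefSeq sequence of build GRCm38.p6, with every match to the core on either strand in capitals. Vegfa has 2 such starts in the table, and both windows are shown.
Hif1a: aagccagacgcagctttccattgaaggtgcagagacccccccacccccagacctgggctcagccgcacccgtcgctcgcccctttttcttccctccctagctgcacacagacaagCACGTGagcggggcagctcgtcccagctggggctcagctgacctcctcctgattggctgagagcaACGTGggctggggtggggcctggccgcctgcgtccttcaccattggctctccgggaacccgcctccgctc
Vegfa, first start: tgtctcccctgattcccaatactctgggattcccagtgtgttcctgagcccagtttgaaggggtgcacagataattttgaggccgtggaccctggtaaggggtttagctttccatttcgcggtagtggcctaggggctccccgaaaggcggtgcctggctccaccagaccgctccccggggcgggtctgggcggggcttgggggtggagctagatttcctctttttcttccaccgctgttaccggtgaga
Vegfa, second start: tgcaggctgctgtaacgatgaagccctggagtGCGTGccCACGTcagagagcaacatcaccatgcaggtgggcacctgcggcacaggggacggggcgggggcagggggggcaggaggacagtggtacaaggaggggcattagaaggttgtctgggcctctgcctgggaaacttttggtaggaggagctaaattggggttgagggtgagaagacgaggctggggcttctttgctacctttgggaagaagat
Bnip3: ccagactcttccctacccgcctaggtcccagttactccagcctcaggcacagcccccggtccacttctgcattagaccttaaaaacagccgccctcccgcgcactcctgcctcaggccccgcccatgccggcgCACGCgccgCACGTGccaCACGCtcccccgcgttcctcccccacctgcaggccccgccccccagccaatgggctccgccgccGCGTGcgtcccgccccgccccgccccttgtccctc
P4ha1: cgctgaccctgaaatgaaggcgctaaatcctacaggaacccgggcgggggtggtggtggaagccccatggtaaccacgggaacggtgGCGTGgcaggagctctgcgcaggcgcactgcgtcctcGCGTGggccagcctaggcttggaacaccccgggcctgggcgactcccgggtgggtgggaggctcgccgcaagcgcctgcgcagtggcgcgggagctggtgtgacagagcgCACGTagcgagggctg
Ddit4: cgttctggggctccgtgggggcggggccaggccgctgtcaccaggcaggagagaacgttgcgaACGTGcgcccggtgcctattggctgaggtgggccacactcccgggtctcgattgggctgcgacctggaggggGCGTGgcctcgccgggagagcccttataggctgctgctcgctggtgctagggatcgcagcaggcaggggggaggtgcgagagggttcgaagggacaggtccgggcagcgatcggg
The windows lie at chr12:73907617-73907866 on the plus strand for Hif1a, chr17:46032378-46032627 and chr17:46025164-46025413 on the minus strand for the first and the second start of Vegfa, chr7:138909507-138909756 on the minus strand for Bnip3, chr10:59323046-59323295 on the plus strand for P4ha1 and chr10:59951771-59952020 on the minus strand for Ddit4. The Bnip3 window held 5 matches, those of Hif1a and P4ha1 held 3 each and that of Ddit4 held 2. For Vegfa, the window at the first start held 0 matches and that at the second held 2. The Hif1a start used lies inside the gene span of the count table, which begins at 73901375, so its window is not upstream of that span. The second Vegfa window also lies inside its gene span, chr17:46016993-46032377. Its 2 matches are therefore within the gene and not upstream of it. Where CACGTG is printed, as in Hif1a and Bnip3, a match on each strand overlaps the other, and both were counted. At least 1 match was present in 38.6% of 32851 mouse promoters searched in the same way, at least 2 in 16.73% and at least 5 in 1.011%. RefSeq promoters were found for 9 of the 10 genes, with 4 matches in Ankrd37, 2 in Adm and 1 each in Car9 and Egln3. A match describes letters only, and its absence from a window says nothing about binding elsewhere.

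The 18 libraries held 44174080 to 56996252 counts each. Levels are given as CPM, which are counts scaled to a common effective library size. Libraries differed in the slope of expression against the GC content of genes. For each rise of 10 percentage points in GC content, the slope in log2 CPM was -0.874 to -0.419 in obese endpoint, -0.874 to -0.0643 in lean endpoint, 0.326 to 1.515 in obese midpoint and 0.106 to 0.443 in lean midpoint libraries. The sign of the slope followed the time point in all 18 libraries. Mitochondrial transcripts took 17.1% to 24.4% of counts in obese endpoint, 17.1% to 44.7% in lean endpoint, 5.79% to 8.06% in obese midpoint and 8.95% to 12.3% in lean midpoint libraries. Lean endpoint replicate 1 stood apart with 44.7%. Each fold change below is therefore given as measured and, where stated, with the smooth trend on GC content and length removed from each library ("with GC offsets"). These offsets remove both trends at once, so a shift they bring cannot be assigned to GC content alone. Of 6 epithelial markers, only Krt8 reached 1 CPM, at 20.9, 24.6, 47.8 and 29.2 mean CPM in obese endpoint, lean endpoint, obese midpoint and lean midpoint libraries. Epcam and Cdh1 averaged below 1 CPM in every group. Fibroblast markers summed to 1249 to 2874 CPM, most of it from Col3a1 (mean 1401 to 1847 CPM by group), while Col1a1 and Col1a2 averaged at most 10.2 and 6.40 CPM, and whether the sorted cells themselves gave this RNA was not tested. Macrophage markers summed to 134 to 733, 243 to 415, 179 to 351 and 239 to 562 CPM in the same order of groups, with all 12 detected and overlapping ranges. Adipocyte markers summed to 10.7 to 17.7, 18.95 to 80.0, 3.97 to 8.31 and 5.46 to 9.72 CPM in that order, and obese and lean libraries did not overlap at endpoint. Most of this was Fabp4, at mean levels of 13.8, 40.7, 4.02 and 7.19 CPM, while Adipoq averaged at most 0.0232 CPM. The part of these markers in the results was not tested. Pan-leukocyte markers summed to 103 to 387 CPM, neutrophil markers to 19.2 to 91.3, T and NK cell markers to 1.29 to 11.1 and erythroid markers to 0.827 to 15.1 over all groups. In RNA of a sorted population, fewer cells of a type and less RNA per cell cannot be told apart.

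**Figure D1:**
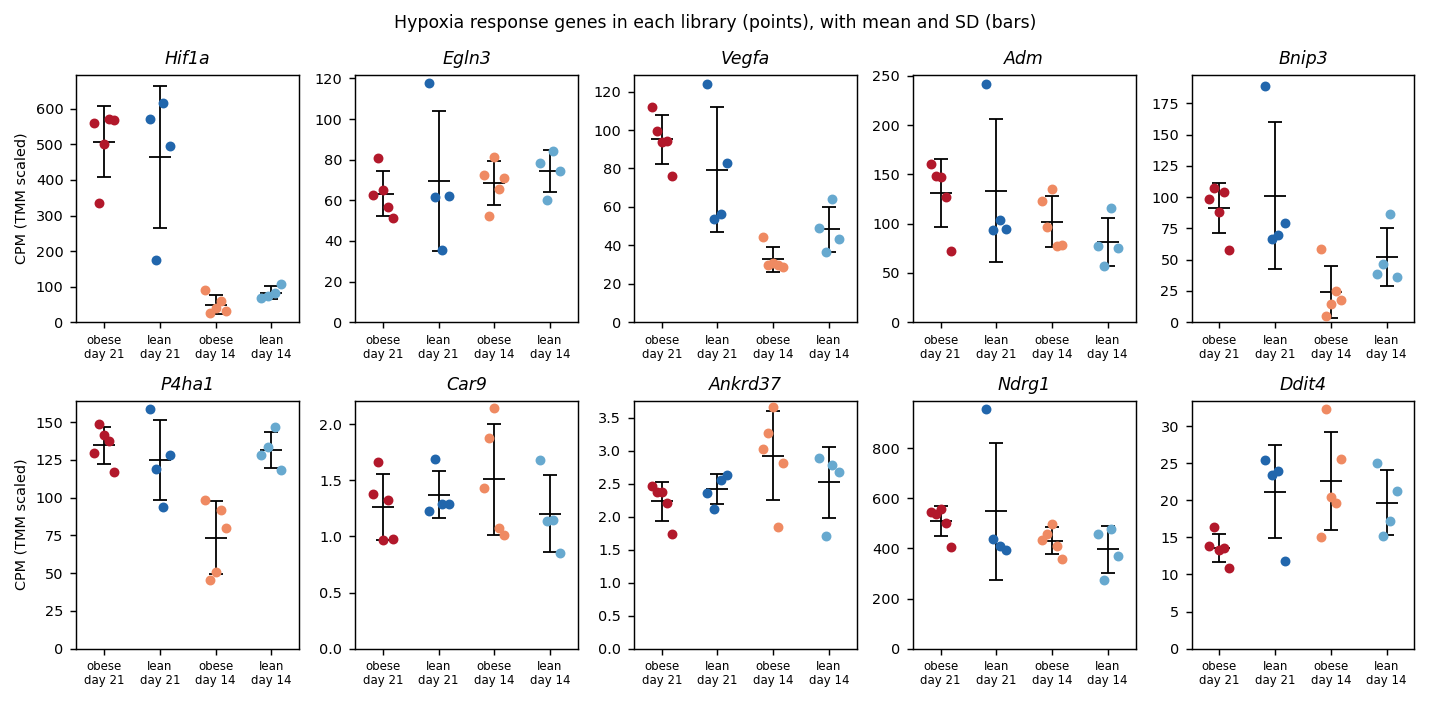
CPM of the 10 hypoxia genes in each library (points), with the group mean and SD (bars), for obese and lean hosts at day 21 and day 14. Hif1a is at 174 CPM or more in every day 21 library and at 108 CPM or less in every day 14 library, whereas Egln3, Car9 and Ankrd37 overlap between all 4 groups.

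Between day 14 and day 21, RNA of the HIF subunit Hif1a and of the vessel growth factor Vegfa was higher in both hosts, while the widely used hypoxia markers Car9, Egln3, Ankrd37 and Ndrg1 were not called in any of the 5 comparisons by edgeR's quasi-likelihood test with every library. In obese hosts over the same time 4 members rose (Hif1a, Vegfa, Bnip3 and P4ha1) and 1 fell (Ddit4), whereas 37.8% of all tested genes were called higher and 36.1% lower (73.9% in either direction). In lean hosts 2 members rose (Hif1a and Vegfa) and 0 fell, against 21.4% and 9.5% of all tested genes. The lean Vegfa increase was called in 7 of 11 other settings with every library and in 13 of 18 fits that left out 1 library. Without lean endpoint replicate 1 it was log2 0.39 and was not called. At midpoint 0 members were higher and 1 (P4ha1) was lower in obese hosts, against 16.7% and 12.8% of all tested genes. At endpoint 0 members differed between hosts, and 0.00612% of all tested genes, a single gene, were called, with 800 genes at an unadjusted p under 0.05. Of the 10 members, 9 had a log2 difference from -0.15 to 0.26 between hosts at endpoint, and that of Ddit4 was -0.64. Without lean endpoint replicate 1 these differences were 0.57 for Vegfa, 0.44 for Adm, 0.35 for Bnip3 and 0.31 for Ndrg1, with adjusted p from 0.832 for Vegfa to 0.991 for Bnip3, and none was called. For the difference between the host effects at the 2 time points, 0 members and 0% of all tested genes were called, although 5451 genes had an unadjusted p under 0.05 and DESeq2 and limma-voom called 1681 and 5119 genes. The members that rose over time were about as frequent as among all genes in both hosts. Fewer members than genes overall fell in obese hosts, a difference that was not tested, so the counts show nothing particular to the members. The median log2 fold change of the 10 genes over time was 0.30 in obese and 0.33 in lean hosts, beside 0.00 and 0.04 for all genes. With GC offsets 2 members rose (Hif1a and Vegfa) and 0 fell in obese hosts, against 25.4% and 32.2% of all genes with a GC value. In lean hosts 3 rose (Hif1a, Vegfa and Ddit4) and 1 fell (P4ha1), 4 members called against 24.3% of all genes (12.3% higher and 12% lower). With GC offsets 0 members were called between hosts at midpoint, where 8.14% of all genes were higher and 3.58% lower in obese hosts. At endpoint 0 members and 0.0062% of all genes were called with GC offsets.

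Hif1a, which encodes the oxygen-regulated alpha subunit of HIF, had the largest change of the 10 genes in both time comparisons as measured, while with GC offsets Vegfa had the larger value in obese hosts (log2 1.48, against 1.31 for Hif1a). The gene (ENSMUSG00000021109) lies at chr12:73901375-73947530 in mm10. Its level in obese endpoint libraries was 561, 335.5, 502, 572 and 569 CPM, against 90.5, 25.9, 40.3, 58.9 and 32.4 CPM in obese midpoint libraries. In lean hosts it was 571, 174, 617 and 497 CPM at endpoint and 68.9, 74.4, 82.9 and 108 CPM at midpoint. The endpoint and midpoint libraries did not overlap in either host. Means were 508 ± 101 CPM at endpoint and 49.6 ± 26.0 CPM at midpoint in obese hosts (SD, n = 5 each), and 464 ± 200 and 83.6 ± 17.4 CPM in lean hosts (SD, n = 4 each). Hif1a rose 10.2-fold between day 14 and day 21 in obese hosts, a log2 fold change of 3.36 ± 0.35 (SE; adjusted p = 4.3e-07, quasi-likelihood test of edgeR, p adjusted after Benjamini and Hochberg over all 16352 genes). In lean hosts it rose 5.55-fold (log2 2.47 ± 0.38, adjusted p = 0.000251). The size of the increase depended on the GC and length correction. Hif1a has 41.3% GC, and all tested genes of 40% to 45% GC had a median log2 fold change of 1.94 in obese and 1.04 in lean hosts. With GC offsets the increase was 2.48-fold in obese (log2 1.31 ± 0.16, adjusted p = 2.7e-06) and 2.30-fold in lean hosts (log2 1.20 ± 0.18, adjusted p = 0.000409), and it was called under all 11 settings with every library, with adjusted p from 9.6e-24 to 8.4e-06 in obese and from 4.0e-09 to 0.00242 in lean hosts. The low lean endpoint value of 174 CPM belonged to replicate 2, and the increase in lean hosts was called in all 18 fits that left out 1 library. Between hosts, Hif1a averaged 508 CPM in obese and 464 CPM in lean endpoint libraries and did not pass the test (log2 0.13 ± 0.34). At midpoint it averaged 49.6 CPM in obese and 83.6 CPM in lean libraries (log2 -0.75 ± 0.34, adjusted p = 0.0890), or log2 -0.12 with GC offsets. This midpoint difference was called with DESeq2 (log2 -0.80, adjusted p = 0.0485), with limma-voom (-0.99, 0.00462), without obese midpoint replicate 1 (-1.08, 0.00893) and without lean endpoint replicate 2 (-0.78, 0.0449). In the same order, these fits called 6206, 8458, 7946 and 4753 of all genes at midpoint. A low-expressed gene on the opposite strand, Gm15283, overlaps Hif1a and averaged 2.65 CPM, against 277 CPM for Hif1a.

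Egln3, which encodes one of the prolyl hydroxylases that mark HIF alpha and is itself a HIF target, did not follow Hif1a. The gene (ENSMUSG00000035105) lies at chr12:54178981-54203860. It averaged 63.4 ± 11.3 CPM in obese endpoint (SD, n = 5), 69.4 ± 34.5 in lean endpoint (n = 4), 68.5 ± 10.8 in obese midpoint (n = 5) and 74.3 ± 10.3 in lean midpoint libraries (n = 4). Its 4 groups overlapped throughout, from 35.8 CPM in a lean endpoint library to 118 CPM in lean endpoint replicate 1. Between time points its log2 fold change was -0.11 ± 0.23 in obese and -0.10 ± 0.26 in lean hosts (adjusted p = 0.670 and 0.788, edgeR's quasi-likelihood test), and with GC offsets it was 0.03 and -0.01. Without lean endpoint replicate 1 the lean value was -0.51 (adjusted p = 0.1004).

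Vegfa, the main growth factor for blood vessels among HIF targets, also rose with time. Its increase was of nearly the same size with and without the joint GC and length correction. The gene (ENSMUSG00000023951) lies at chr17:46016993-46032377. Its level was 112, 99.7, 93.9, 94.2 and 76.2 CPM in obese endpoint libraries, against 44.1, 30.0, 30.9, 29.5 and 28.9 CPM in obese midpoint libraries. Every obese endpoint library was above every obese midpoint library. In lean hosts the endpoint libraries had 124, 53.9, 56.5 and 83.1 CPM, against 49.0, 36.6, 64.3 and 43.1 CPM at midpoint. These overlapped, and the highest lean endpoint value was replicate 1, the library with 44.7% mitochondrial counts. Vegfa rose 2.91-fold in obese hosts (log2 1.54 ± 0.22, adjusted p = 6.4e-06, edgeR's quasi-likelihood test) and 1.64-fold in lean hosts (log2 0.72 ± 0.24, adjusted p = 0.0323). With GC offsets these were log2 1.48 and 0.70 (adjusted p = 6.1e-06 and 0.0275), whereas all genes of 50% to 55% GC, which include Vegfa at 50.9%, had medians of -0.58 and -0.25. Over the 11 settings with every library, adjusted p ranged from 4.2e-12 to 1.3e-05 in obese hosts and from 0.00449 to 0.356 in lean hosts. The lean increase kept its sign under every setting but not its call. It was not called with total count scaling (log2 0.28), without mitochondrial genes (0.59), without a filter (0.64) or with the compared groups fitted alone (0.68). Leaving out lean endpoint replicate 1 lowered it to log2 0.39 (adjusted p = 0.204). It also missed the threshold without lean endpoint replicate 5 (0.70) and without lean midpoint replicate 1 (0.67), replicate 2 (0.56) or replicate 4 (0.61).

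Between hosts, Vegfa averaged 95.2 ± 12.9 CPM in obese and 79.4 ± 32.6 CPM in lean endpoint libraries (SD, n = 5 and 4), and 32.7 ± 6.44 CPM in obese and 48.3 ± 11.8 CPM in lean midpoint libraries (n = 5 and 4). Neither difference was called by edgeR's quasi-likelihood test (log2 0.26 ± 0.23, adjusted p = 0.999 at endpoint; log2 -0.56 ± 0.23, adjusted p = 0.0659 at midpoint). The midpoint difference was near the threshold and kept its sign in all 11 settings with every library, with log2 values from -0.72 to -0.45 and adjusted p from 0.0144 to 0.130, and 5 of the 11 called it. Without obese midpoint replicate 1, the library with the highest Vegfa of its group, it was log2 -0.69 (adjusted p = 0.0188).

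Adm encodes adrenomedullin, a secreted peptide that dilates vessels and acts through the Calcrl receptor. The gene (ENSMUSG00000030790) lies at chr7:110627669-110629819. It had 160, 148, 147, 127 and 72.6 CPM in obese endpoint libraries, against 123, 97.1, 135, 77.1 and 78.0 CPM in obese midpoint libraries. The lean endpoint libraries had 242, 94.0, 103 and 94.9 CPM, against 77.2, 57.2, 116 and 75.6 CPM in lean midpoint libraries. Groups overlapped in both hosts, and lean endpoint replicate 1 was again the highest library of all 18. The log2 fold change between day 14 and day 21 was 0.36 ± 0.28 in obese and 0.71 ± 0.31 in lean hosts (adjusted p = 0.246 and 0.0858, edgeR's quasi-likelihood test), so neither passed the threshold in that test. Limma-voom called the obese increase (log2 0.70, adjusted p = 0.00943), as did GC offsets without lean endpoint replicate 1 (0.52, adjusted p = 0.0400). With GC offsets they were 0.52 and 0.81 (adjusted p = 0.0950 and 0.0516). Without lean midpoint replicate 3 the lean increase was called, at log2 0.88 (adjusted p = 0.0470), and without lean endpoint replicate 1 it was 0.23 (adjusted p = 0.549).

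Bnip3 encodes a receptor on the outer mitochondrial membrane that directs mitochondria to autophagy. The gene (ENSMUSG00000078566) lies at chr7:138890836-138909519. Obese endpoint libraries had 98.9, 108, 88.0, 104 and 57.9 CPM, against 58.4, 4.61, 14.5, 25.2 and 17.8 CPM in obese midpoint libraries. Lean endpoint libraries had 189, 66.4, 70.0 and 79.1 CPM, against 39.0, 46.8, 86.2 and 36.5 CPM in lean midpoint libraries. The obese midpoint libraries spread widely, and the highest of them, replicate 1, overlapped the lowest obese endpoint library. Bnip3 rose in obese hosts (log2 1.92 ± 0.47, adjusted p = 0.00108, edgeR's quasi-likelihood test) and was not called in lean hosts (log2 0.95 ± 0.51, adjusted p = 0.151; 0.42 without lean endpoint replicate 1). At 41.6% GC its obese change was close to the median of 1.94 for genes of 40% to 45% GC. With GC offsets it was log2 0.34 in obese (adjusted p = 0.408, over a range of 7.8e-07 to 0.408 in the 11 settings) and -0.05 in lean hosts, and neither was called. Between hosts at midpoint its log2 difference was -1.11 ± 0.48 (adjusted p = 0.0784), which was called with DESeq2 (-1.18, 0.0336), with limma-voom (-1.42, 0.00175) and without obese midpoint replicate 1 (-1.74, 0.00371), and it was -0.64 with GC offsets (adjusted p = 0.229).

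P4ha1 encodes the catalytic subunit of the prolyl hydroxylase that stabilizes the collagen triple helix. The gene (ENSMUSG00000019916) lies at chr10:59323296-59373304. It was the only member called between hosts. At midpoint it had 98.8, 45.4, 51.0, 92.1 and 80.1 CPM in obese libraries, against 128, 134, 147 and 118 CPM in lean libraries, and the groups did not overlap. It fell by 0.84 ± 0.21 on the log2 scale in obese hosts (adjusted p = 0.0304, edgeR's quasi-likelihood test). The call was lost with GC offsets (log2 -0.33, adjusted p = 0.137, over a range of 0.000611 to 0.189 in the 11 settings) and with the compared groups fitted alone (log2 -0.90, adjusted p = 0.0921). It was also lost without lean midpoint replicate 2 (log2 -0.86) or 3 (-0.81) and without obese midpoint replicate 2 (-0.73) or 3 (-0.76). At endpoint P4ha1 had 129, 148.5, 141, 138 and 117 CPM in obese libraries, against 158.5, 119, 93.8 and 128 CPM in lean libraries, which overlapped (log2 0.11 ± 0.21). Between time points it rose in obese hosts (log2 0.87 ± 0.20, adjusted p = 0.000589), but with GC offsets the sign turned, to log2 -0.25 (adjusted p = 0.134). Genes of 45% to 50% GC, which include P4ha1 at 45.7%, had a median of 0.69 in that comparison. In lean hosts P4ha1 did not pass as measured (log2 -0.08 ± 0.22), whereas with GC offsets it fell by 0.65 on the log2 scale (adjusted p = 0.00696, against a range of 0.00696 to 0.808).

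Car9 encodes a carbonic anhydrase of the cell surface and is among the most used hypoxia markers in tumors. The gene (ENSMUSG00000028463) lies at chr4:43506966-43513729. It stayed near 1 CPM in every group, at 0.968 to 1.66 CPM in obese endpoint, 1.23 to 1.69 in lean endpoint, 1.01 to 2.15 in obese midpoint and 0.850 to 1.68 in lean midpoint libraries. Each library thus held 39 to 100 Car9 counts, and the log2 standard errors were 0.26 to 0.29 in the 4 pairwise comparisons. Ankrd37, an ankyrin repeat gene known as a HIF target, lies at chr8:45996902-45999867 (ENSMUSG00000050914) and had 1.73 to 2.46, 2.12 to 2.63, 1.84 to 3.66 and 1.71 to 2.89 CPM in the same order of groups. The Ufsp2 gene overlaps Ankrd37 on the opposite strand and averaged 72.9 CPM, against 2.53 CPM for Ankrd37. No source used here states the strand setting of the counting, so the Ankrd37 values are uncertain. Ankrd37 was called lower at endpoint in obese hosts when obese midpoint replicate 4 was left out (log2 -0.52, adjusted p = 0.0241, edgeR's quasi-likelihood test), against log2 -0.39 (adjusted p = 0.0960) with every library. Ndrg1, a stress-inducible gene known to respond to hypoxia, lies at chr15:66929321-66969640 (ENSMUSG00000005125) and had the highest mean CPM of the 10 genes in every group. At endpoint its median was below that of Hif1a, at 537 against 561 CPM in obese and 422 against 534 CPM in lean libraries. Ndrg1 averaged 510 ± 61.3, 548 ± 273, 431 ± 53.1 and 396 ± 93.3 CPM in obese endpoint, lean endpoint, obese midpoint and lean midpoint libraries (SD, n = 5, 4, 5 and 4). The wide lean endpoint spread came from replicate 1, which had 956 CPM, against 392 to 436 CPM in the other 3 lean endpoint libraries. Its log2 change over time in lean hosts was 0.47 ± 0.25 with that library (adjusted p = 0.146, edgeR's quasi-likelihood test) and 0.03 without it.

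Ddit4 encodes an inhibitor of the growth kinase complex mTORC1, and responds to glucocorticoids and to ATF4 as well as to HIF. The gene (ENSMUSG00000020108) lies at chr10:59949675-59951770. Obese endpoint libraries had 13.9, 16.4, 13.3, 13.5 and 10.9 CPM, against 15.01, 32.4, 20.4, 19.6 and 25.7 CPM in obese midpoint libraries. Lean endpoint libraries had 25.5, 23.4, 24.0 and 11.8 CPM, against 25.01, 15.2, 17.2 and 21.3 CPM in lean midpoint libraries. Ddit4 was the only member called lower with time as measured with every library. It fell by 0.73 ± 0.23 on the log2 scale in obese hosts (adjusted p = 0.00677, edgeR's quasi-likelihood test). Genes of 55% to 60% GC, which include Ddit4 at 57.9%, had a median of -1.07 in the same comparison, and with GC offsets the Ddit4 value was 0.33 (adjusted p = 0.142, over a range of 0.00137 to 0.181). In lean hosts the value was log2 0.11 ± 0.25 as measured and 0.63 with GC offsets, where it was called (adjusted p = 0.0381, over a range of 0.0381 to 0.993). That call was lost with the same offsets when lean endpoint replicate 1 was left out. At endpoint, 3 of 4 lean libraries were above all 5 obese libraries and the remaining one, replicate 5, lay among them. The difference was log2 -0.64 ± 0.24 and was not called (adjusted p = 0.989, or 0.469 with GC offsets).

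**Figure D2:**
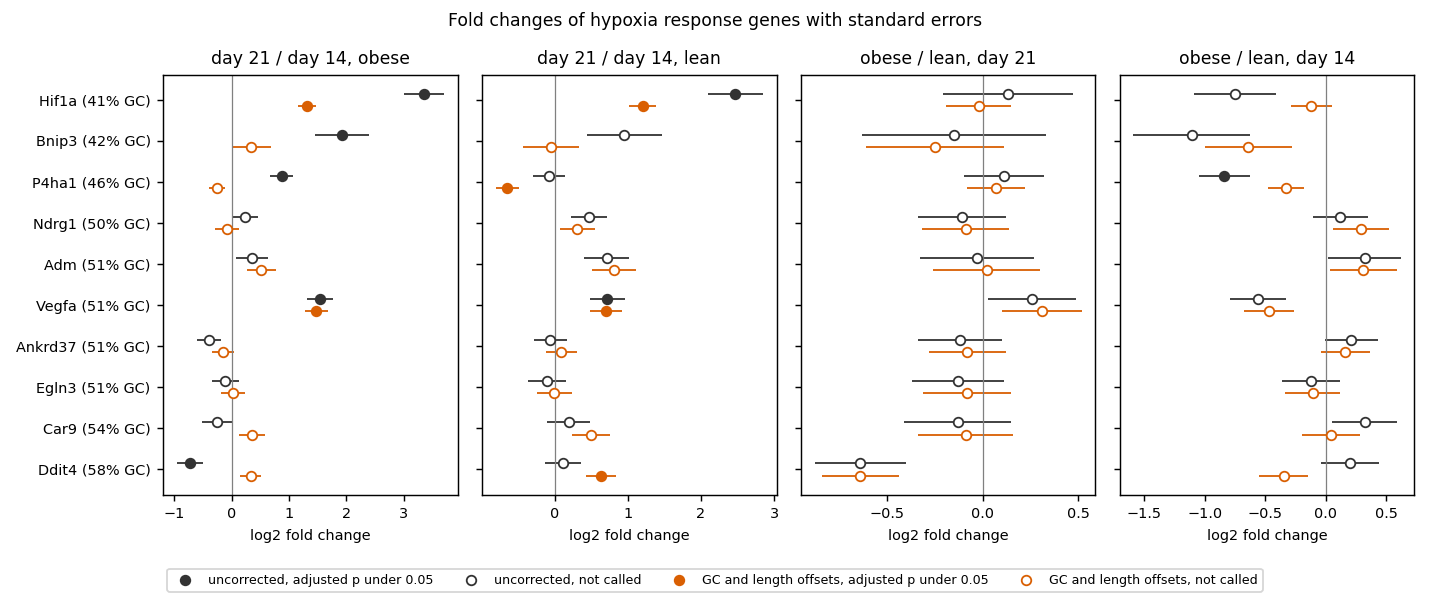
Log2 fold change of each member with its standard error (x axis), as measured (dark) and with GC offsets (orange), in 4 comparisons; filled points had an adjusted p under 0.05. Genes run from 41% GC at the top to 58% at the bottom, and the values with GC offsets are nearer to 0 for Hif1a, Bnip3 and P4ha1 in obese hosts over time while those of Vegfa move little.

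The host effect at endpoint minus that at midpoint, which equals the change over time in obese minus that in lean hosts, was positive for P4ha1 (log2 0.95 ± 0.30, adjusted p = 0.0983, edgeR's quasi-likelihood test), Vegfa (0.82 ± 0.33, adjusted p = 0.108), Bnip3 (0.96 ± 0.68, adjusted p = 0.298) and Hif1a (0.88 ± 0.48, adjusted p = 0.189). It was negative for Ddit4 (-0.84 ± 0.34, adjusted p = 0.113). None was called, so the larger changes over time in obese hosts are not shown to differ from those in lean hosts. DESeq2 called P4ha1 and Vegfa, and limma-voom called these and Bnip3 and Hif1a. Among all genes they called 1681 and 5119, against 0 in edgeR's quasi-likelihood test with every library. Leaving out obese midpoint replicate 1 called all 5 genes, with adjusted p from 0.0162 for P4ha1 to 0.0377 for Bnip3. In that fit 5656 of all genes were called, so these calls are not particular to the members. With GC offsets the values were 0.40 for P4ha1, 0.78 for Vegfa, 0.40 for Bnip3, 0.10 for Hif1a and -0.29 for Ddit4.

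**Figure D3:**
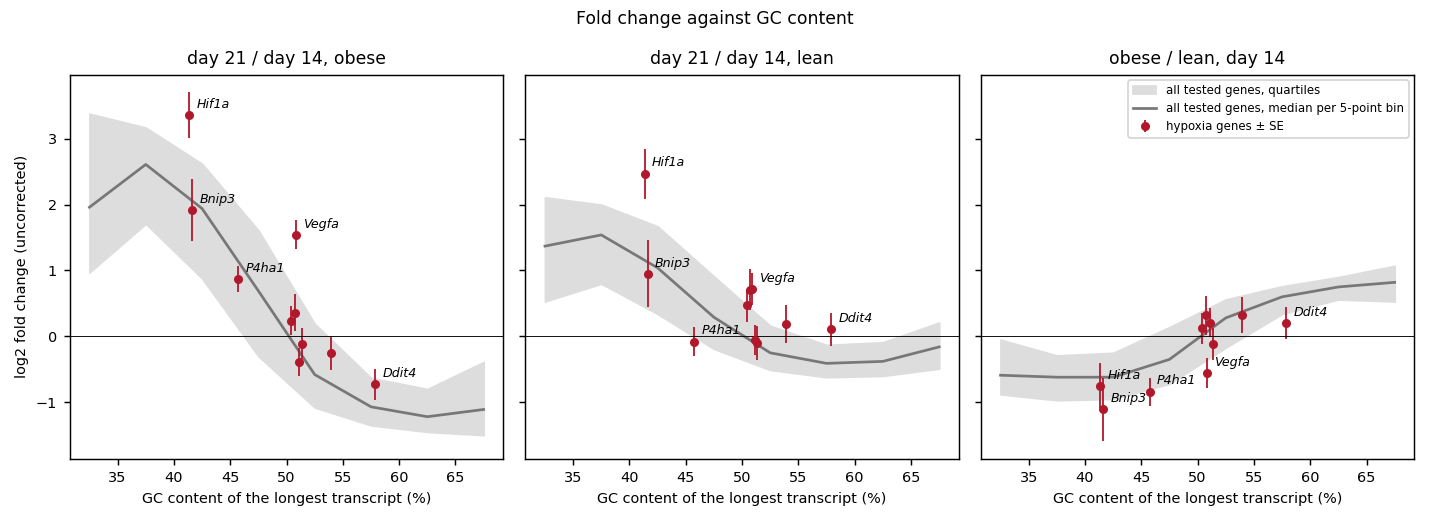
Log2 fold change as measured against the GC content of the longest annotated transcript, for the 10 members (points with SE) over the median and quartiles of all tested genes in bins of 5 percentage points (line and band). Hif1a lies above the band in both time comparisons and Vegfa above it in both, whereas Bnip3 at 1.92 lies on the obese median of 1.94 and Ddit4 at -0.73 lies near its bin's median of -1.07.

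Levels between genes were compared per kilobase of the exon length in the deposited table. In obese endpoint libraries Adm (94.8 CPM per kb), Hif1a (86.1) and Ndrg1 (77.3) were the most abundant, with overlapping ranges, followed by Bnip3 (40.3), P4ha1 (32.8), Egln3 (23.8) and Vegfa (22.2). Ddit4 (8.07), Ankrd37 (1.59) and Car9 (0.548) each lay below the gene before them with no overlap. In obese midpoint libraries Adm (73.8 CPM per kb) and Ndrg1 (65.4) led, and Hif1a ranked 7 of 10 at 8.41 CPM per kb, overlapping Bnip3 (10.7) above it and Vegfa (7.62) below it. Lean libraries had the same leading genes. Adm, Ndrg1 and Hif1a were at 96.7, 83.2 and 78.8 CPM per kb at endpoint, while Ndrg1 and Adm were at 60.1 and 59.0 CPM per kb at midpoint. Car9 and Ankrd37 were the lowest of the 10 genes in every group.

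Within groups, several of the genes deviated from their group means together. Over 18 libraries, after GC and length correction, Pearson's r between deviations was 0.88 for Adm and Ndrg1, 0.86 for Vegfa and Adm, 0.73 for Vegfa and Egln3 and 0.72 for Vegfa and Ndrg1. Of the 45 pairs, 37 had r above 0, with a median of 0.31. For Hif1a, r was 0.33 with Vegfa, 0.06 with Bnip3 and -0.40 with P4ha1. Lean endpoint replicate 1 contributed to these values. Without it, r was 0.80 for Adm and Ndrg1, 0.76 for Vegfa and Adm, 0.52 for Vegfa and Egln3 and 0.50 for Vegfa and Ndrg1, and 32 pairs were above 0. The 5 genes whose deviations were most like the mean of the 10, among 10874 genes of at least 1 CPM, were Ero1l (r = 0.93), which encodes an oxidase of the endoplasmic reticulum, Mif (0.85), a secreted cytokine, the glycolytic enzymes Aldoa (0.83) and Pkm (0.81), and Casp6 (0.81), a caspase. Without lean endpoint replicate 1 these were 0.95, 0.83, 0.71, 0.82 and 0.65, and Neurl2 (0.90) and Slc2a1 (0.83) took the places of Aldoa and Casp6 among the first 5. Without the GC and length correction the first 5 were Egln1 (0.88), Pin4 (0.87), Kcmf1 (0.85), Casp6 (0.85) and Akr1b8 (0.84), so Casp6 alone was in both lists over 18 libraries. Pairs share libraries, and these values are descriptions without a test.

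**Figure D4:**
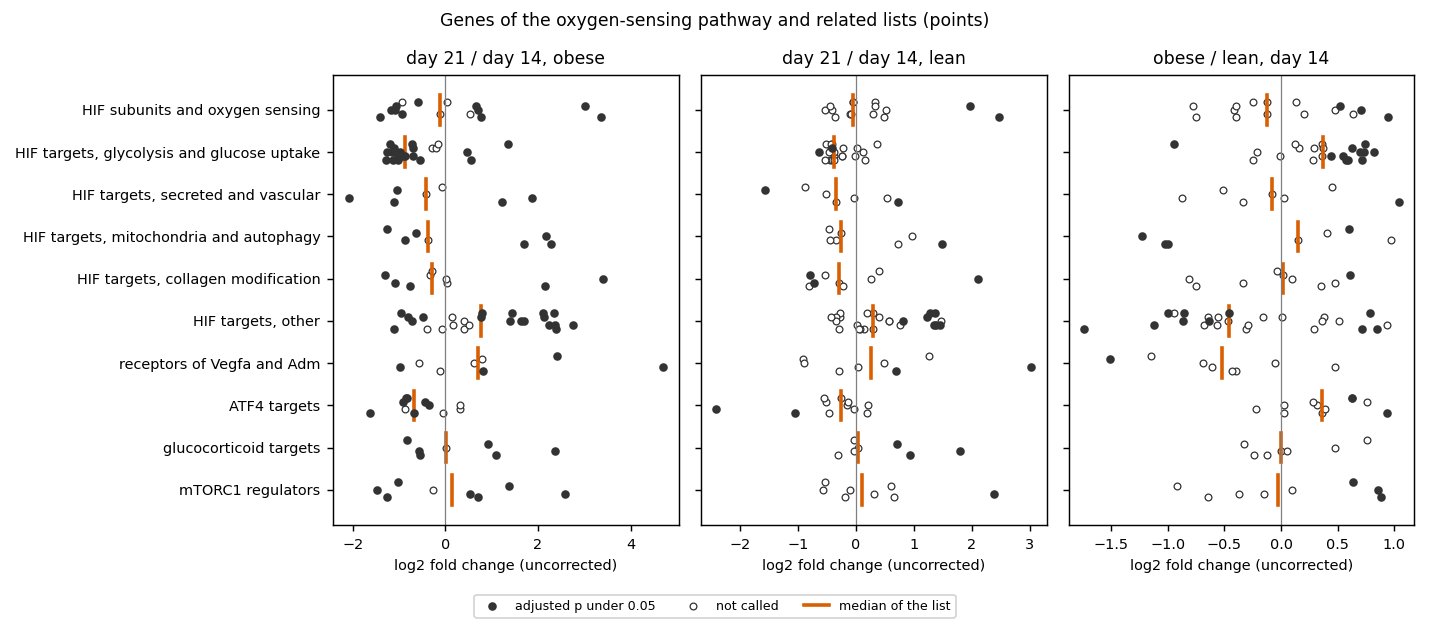
Log2 fold change as measured (x axis) of single genes (points) in 10 lists around the HIF pathway, with the median of each list (orange bar), in 3 comparisons; filled points had an adjusted p under 0.05. In obese hosts over time the glycolysis list sits to the left, with a median of -0.88, and the list of other HIF targets to the right, with a median of 0.76.

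Over time, 37.8% of all tested genes were higher and 36.1% lower in obese hosts, and 21.4% were higher and 9.5% lower in lean hosts, and the list counts that follow are read against these shares. Of 15 tested genes for HIF subunits and oxygen sensing, Hif1a and Egln3 included, 5 rose and 6 fell between day 14 and day 21 in obese hosts, and 2 rose and 0 fell in lean hosts (median log2 fold change -0.11 and -0.06). The obese counts are near the shares of all genes. Cul2, the scaffold of the VHL ubiquitin ligase, averaged 43.6 ± 9.47 CPM in obese endpoint and 5.36 ± 3.04 CPM in obese midpoint libraries (SD, n = 5 each). It rose by log2 3.02 ± 0.33 in obese and 1.97 ± 0.36 in lean hosts, and by 1.02 and 0.80 with GC offsets, all called. Rbx1, the ring subunit of the same ligase, fell by 1.09 on the log2 scale in obese hosts and by 2.82 with GC offsets. Siah2, a ligase that acts on the EGLN enzymes, fell by 1.06 and was not called with GC offsets (-0.15). At midpoint Egln2, another HIF prolyl hydroxylase, averaged 82.9 ± 35.2 CPM in obese and 42.8 ± 8.19 CPM in lean libraries (SD, n = 5 and 4) and rose by log2 0.95 ± 0.26 (adjusted p = 0.0304, edgeR's quasi-likelihood test). Elob (0.71) and Siah2 (0.52) were also called higher there, and with GC offsets none of these 3 was called, at 0.31, -0.13 and 0.07.

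Genes of glycolysis and glucose uptake are classical HIF targets. Of 21 tested, 3 rose and 15 fell over time in obese hosts (median log2 -0.88), against 37.8% and 36.1% of all genes. In lean hosts 0 rose and 2 fell (median -0.38), against 21.4% and 9.5% of all genes, so the number that fell there was at the share of all genes. With GC offsets 1 rose and 10 fell in obese hosts (median -0.32), against 25.4% and 32.2% of all genes. Gpi1, which makes fructose phosphate from glucose phosphate, averaged 343 ± 40.6 CPM at endpoint and 754 ± 211 CPM at midpoint in obese hosts (SD, n = 5 each) and fell by 1.14 ± 0.17 on the log2 scale (adjusted p = 1.1e-05, edgeR's quasi-likelihood test), or by 0.99 with GC offsets. Gapdh, a dehydrogenase in the middle of the pathway, fell by 1.19 (0.80 with GC offsets), the lactate exporter Slc16a3 by 1.27 (0.54) and the hexokinase Hk1 by 0.88 (0.43). At midpoint 10 of the 21 were higher and 1 was lower in obese hosts (median log2 0.37), against 16.7% and 12.8% of all genes. With GC offsets 4 were higher and 0 lower (median 0.18), against 8.14% and 3.58% of all genes. Gapdh averaged 63.6 ± 22.3 CPM in obese and 38.0 ± 4.83 CPM in lean midpoint libraries (SD, n = 5 and 4; log2 0.74 ± 0.21, 0.60 with GC offsets), and Gpi1 rose by log2 0.59 (0.56 with GC offsets). Gapdh has many near-identical copies in the mouse genome, so its counts are uncertain. At endpoint 0 of the 21 were called between hosts, against 0.00612% of all genes.

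Other HIF targets were mixed. Of 7 secreted and vascular targets, 2 rose and 3 fell over time in obese hosts. Angptl4, an inhibitor of lipoprotein lipase, fell by 1.12 in obese hosts over time, and at midpoint it rose in obese hosts by log2 1.04 ± 0.23, with 214 ± 79.4 CPM in obese and 104 ± 13.9 CPM in lean libraries (SD, n = 5 and 4; 1.14 with GC offsets, called). Of 7 mitochondrial and autophagy targets, 3 rose and 3 fell over time in obese hosts. Bnip3l, the close relative of Bnip3, rose by log2 2.27 ± 0.36 in obese and 1.49 ± 0.39 in lean hosts, or 0.51 (called) and 0.42 (not called) with GC offsets. Of 9 collagen modification genes, 2 rose and 3 fell in obese hosts. Plod2, a lysyl hydroxylase of collagen, averaged 374 ± 79.1 CPM in obese endpoint and 35.3 ± 15.6 CPM in obese midpoint libraries (SD, n = 5 each) and rose by log2 3.41 ± 0.33, or 1.71 with GC offsets, a larger value than that of P4ha1 in either fit, while Plod1 and Plod3 fell by 1.09 and 1.30 (0.99 and 0.43 with GC offsets). Of 25 further HIF targets, 13 rose and 5 fell in obese hosts, and 7 rose and 0 fell in lean hosts. With GC offsets 8 rose and 2 fell in obese hosts, against 25.4% and 32.2% of all genes. In lean hosts 3 rose and 0 fell with GC offsets, against 12.3% and 12% of all genes. The histone demethylases Kdm4c and Kdm3a rose by log2 2.24 and 2.10 in obese hosts, and by 0.49 and 0.88 with GC offsets. Ero1l, the gene most like the 10 members within groups after GC and length correction, rose by log2 2.37, or 0.46 with GC offsets.

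Receptors for the 2 secreted members were also measured. Of 8 tested, 3 rose and 1 fell over time in obese hosts, against 37.8% and 36.1% of all genes. In lean hosts 2 rose and 0 fell, against 21.4% and 9.5% of all genes. Calcrl, the receptor of adrenomedullin, averaged 5.42 ± 2.16 CPM in obese endpoint and 0.200 ± 0.232 CPM in obese midpoint libraries (SD, n = 5 each). It rose by log2 4.70 ± 0.65 in obese and 3.02 ± 0.67 in lean hosts (adjusted p = 4.3e-06 and 0.00251, edgeR's quasi-likelihood test), or 2.40 and 1.61 with GC offsets. Calcrl is also expressed by endothelial cells. Endothelial markers summed to 4.08 to 11.8 CPM in obese endpoint, 7.77 to 8.92 in lean endpoint, 6.55 to 11.6 in obese midpoint and 9.56 to 12.3 in lean midpoint libraries. Of these markers, 2 of 7 were at 1 CPM or more in every group. Median sums were lower at endpoint than at midpoint in both hosts, with overlapping ranges in obese hosts. The cell source of the Calcrl RNA was not tested. Nrp2, a co-receptor of VEGF family ligands, rose by log2 0.82 ± 0.18 in obese and 0.69 ± 0.20 in lean hosts, or 0.46 and 0.47 with GC offsets. Ramp2, also in this list, fell by 0.98 ± 0.27 on the log2 scale in obese hosts over time. With GC offsets its change was log2 -0.12 and was not called. Kdr, the main signaling receptor of Vegfa, averaged 1.37 ± 0.596 CPM in obese and 3.91 ± 2.06 CPM in lean midpoint libraries (SD, n = 5 and 4), and fell by 1.51 on the log2 scale there, but was not called with GC offsets (-1.22).

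The other known inputs to Ddit4 were compared over the same time in obese hosts. Of 11 ATF4 targets, 0 rose and 7 fell (median log2 -0.68), led by Trib3, a pseudokinase, at -1.62 ± 0.30, against 37.8% of all genes higher and 36.1% lower. With GC offsets 3 rose and 2 fell, against 25.4% and 32.2%, and Trib3 was not called (log2 -0.51). Of 7 glucocorticoid targets, 3 rose and 3 fell, near the shares of all genes. The transcription factor Klf9 rose by log2 2.37 and the kinase Sgk1 by 1.09, with 1.67 and 0.55 after GC offsets, while the chaperone Fkbp5 fell by 0.55 (0.63 with GC offsets). Of 8 other regulators of mTORC1, 4 rose and 3 fell, also near those shares. Deptor, an mTORC1 inhibitor like Ddit4, rose by log2 2.59 ± 0.42 in obese and 2.38 ± 0.47 in lean hosts, or 0.80 and 1.36 with GC offsets, while Tsc2 fell by 1.48 in obese hosts (1.01 with GC offsets). In these 3 lists, 0 genes were called between hosts at endpoint, against 0.00612% of all genes.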

How the data were processed

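The authors deposited 1 table of whole-number counts per gene, not normalized, for 39017 genes and 19 libraries of sorted E0771 cells. TopHat, DESeq and mm10 are named, without versions or roles, per the submitters' processing notes. No source used here states the counting tool, the annotation release or the strand setting. Gene positions and exon lengths are those of the deposited table, and symbols came from the GENCODE annotation by identifier (37607 genes matched). The 10 genes and the gene lists were chosen with earlier results of these data known.

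The tests used edgeR 4.0.16 (R 4.3.3). Lean endpoint replicate 4 was left out, filterByExpr with the 4 groups kept 16352 genes, and TMM scaled the 18 libraries. One quasi-likelihood fit with a mean per group gave 5 contrasts, each adjusted by the Benjamini-Hochberg method over all tested genes, with 0.05 as the threshold. A gene is called where its adjusted p is under 0.05. Each standard error is the absolute log2 fold change over the square root of F. GC offsets removed, in each library, a spline of log2 CPM on the GC content of the longest transcript (5 degrees of freedom) and on length (3), for 16122 genes. No pair of libraries in a group was a repeat (chi-square per degree of freedom at least 35.7). On simulated counts for 16082 genes with changes at midpoint between hosts, 43.0% of genes changed 2-fold and 98.0% of those changed 4-fold were recovered. These shares were not split by expression level or by gene, so they do not give the recovery for any single member.

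From each pathway list, up to 4 called genes with the smallest p, or else the single gene with the smallest p, could be named, and the text names some of these. The genes most like the members were the 5 with the highest Pearson r to their mean after GC and length correction, as deviations from group means. Alternatives were RLE and total count scaling, other filters, no mitochondrial genes, DESeq2 1.42.0, limma-voom (limma 3.58.1) with quality weights, compared groups alone, GC offsets, the replicate number as a block, and each library left out. GC offsets without lean endpoint replicate 1 were added after seeing the data.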

Additional observations from a re-analysis of the deposited data

Results flagged for a closer look

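In 6 of 40 combinations of gene and group, 1 library lay far from the others by Dixon's gap test, which flags about 1 in 20 groups by chance. Lean endpoint replicate 1, which had 44.7% mitochondrial counts, was the far library in 3 of them. It had 242 CPM of Adm, where the next library of its group had 103.4, 188.8 CPM of Bnip3, where the next had 79.1, and 956.3 CPM of Ndrg1, where the next had 436. Its Hif1a, at 571 CPM, lay within its group. Vegfa was 44.14 CPM in obese midpoint replicate 1 and at most 30.9 CPM in the other 4 obese midpoint libraries. Car9 was 1.689 CPM in lean endpoint replicate 2 and at most 1.29 CPM in the other lean endpoint libraries. Ddit4 was 11.81 CPM in lean endpoint replicate 5 and at least 23.4 CPM in the others of its group.

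In the lean endpoint library that was left out, Car9 on chromosome 4 is the 1 member inside the counted chromosomes, with 36 counts. Scaled to the counts of chromosomes 1 to 4 alone, this is 3.29 CPM, below the 4.39 to 9.98 CPM of the other 18 libraries on the same scale.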

How the results depend on the processing

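Of 8 member calls, 3 kept their sign and stayed called under every setting: Hif1a over time in both hosts and Vegfa over time in obese hosts. With GC offsets P4ha1 and Ddit4 over time in obese hosts turned sign, to log2 -0.25 and 0.33, and were not called (-0.25 and 0.32 with the replicate block added, -0.24 and 0.33 without lean endpoint replicate 1). Of 42 member values not called, 18 changed sign under at least 1 of the 11 settings with every library. The causes were not tested.

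Over time in obese hosts 5 members were called. This was 7 with limma-voom, which added Adm and Ndrg1, and 2 with GC offsets. It was 3 when the block or the loss of lean endpoint replicate 1 was added. Among all tested genes 12091 were called there, against 12717 with limma-voom and 9294 with GC offsets. These were 8975 with the block added and 9561 without lean endpoint replicate 1, so the member counts are not particular to the members. Over time in lean hosts 2 were called; this was 1 with total count scaling, without mitochondrial genes, without a filter or with compared groups alone, and 4 with GC offsets with or without the block, where the block lost Ddit4 and added Adm. With GC offsets and without lean endpoint replicate 1 it was 2, of which 1 was higher. Among all genes 6742 were called in lean hosts with total count scaling and 6036 without mitochondrial genes. Without a filter 4505 were called, with compared groups alone 5642 and with GC offsets 3921. At midpoint 1 member was called between hosts. This was 2 with RLE, without mitochondrial genes or at 5 CPM in 4 libraries, and 4 with DESeq2 or limma-voom. It was 0 with compared groups alone or GC offsets in any form. Among all genes the midpoint counts were 4698 with RLE, 4065 without mitochondrial genes and 5245 at 5 CPM. DESeq2 called 6206 and limma-voom 8458 of 16352 genes, so their member calls are not particular to the members. For the difference of host effects, DESeq2 called 2 members and limma-voom 4, against 1681 and 5119 of all genes.

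Among all genes at midpoint, 4825 were called, 56.5% of them higher in obese hosts. This was 499 (1.40% higher) with total count scaling, 4065 (42.2% higher) without mitochondrial genes, 8458 with limma-voom, 0 with compared groups alone, 1890 (69.5% higher) with GC offsets, 2192 (70.8% higher) with these and without lean endpoint replicate 1, and 1 with the block and offsets. At endpoint 1 gene was called; this was 13 with DESeq2 and 0 with total count scaling, limma-voom, compared groups alone or the block. For the difference of host effects, 0 were called, against 1 with total count scaling, 1681 with DESeq2 and 5119 with limma-voom. Over time in lean hosts 5053 were called (69.2% higher), against 2966 with block and offsets and 3039 with offsets and without lean endpoint replicate 1. The share higher was 33.2% with total count scaling, 52.0% without mitochondrial genes and 50.8% with GC offsets. Total count scaling moved the median of all genes to -0.32 in that comparison, -0.17 at midpoint and 0.29 for the difference of host effects.

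Leaving out 1 library gave 0 to 4 members and 0 to 7946 genes at midpoint, 0 to 1 gene at endpoint, 0 to 5 members and 0 to 5656 genes for the difference of host effects, 1 to 3 members and 3251 to 6388 genes over time in lean hosts, and 5 to 6 members and 11563 to 12390 genes over time in obese hosts. At midpoint 0 genes were called without lean midpoint replicate 2 or 3 or obese midpoint replicate 2 or 3, and 7946 without obese midpoint replicate 1, the library without which 5656 genes were called for the difference of host effects.

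Libraries with the same replicate number did not deviate together in every pair (r from -0.403 to -0.178 between hosts at midpoint, -0.026 to 0.551 at endpoint, -0.155 to -0.041 over time in lean and -0.127 to 0.276 over time in obese hosts), so the numbers were not taken as pairs. With the replicate number as a block, 3 members were called between hosts at midpoint, 3 over time in lean and 5 over time in obese hosts. Among all genes these counts were 4392, 3727 and 11875. The block added Hif1a (log2 -0.88, adjusted p = 0.0398) and Bnip3 at midpoint, and Adm over time in lean hosts (0.76, 0.0491; 0.86 and 0.0224 with GC offsets). With the block and offsets Adm was also called over time in obese hosts (0.52, 0.0384). Depth was lowest for Car9 and Ankrd37, at 0.850 to 3.66 CPM.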
